A study of Mus musculus with 12 samples.

Results

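Ter-119+ erythroid cells from the spleens of mice exposed to acute hypoxia were compared directly with the same cells from mice after acute blood loss. The comparison held all 4 acute hypoxia samples and all 4 acute blood loss samples, which are 8 of the 12 samples of the series, and it held no samples from normal mice. It covered every gene of the NanoString nCounter Mouse Immunology v1 panel, 547 endogenous and 14 housekeeping genes. The nCounter assay counts RNA molecules directly with barcoded probes and without amplification.

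All mice were adult F1 (CBA x C57BL/6) males aged 3 to 5 months. In the acute blood loss group, between 0.5 and 0.8 mL of blood was taken from the retro-orbital sinus under isoflurane. In the acute hypoxia group, mice spent 16 h in a hypobaric chamber at a pressure equal to an altitude above 4500 m. The labels give spleen harvest on day 3 for all groups. Cells carrying Ter-119, a surface marker of maturing erythroid cells, were enriched on magnetic beads after a density gradient, so other spleen cells could remain. The labels do not say which samples share an animal, a pool or an assay cartridge, so the p-values measure the spread between these samples.

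Blood loss and low oxygen both raise erythropoietin and drive red cell formation, and in the mouse the spleen is a main site of this stress response. Blood loss removes plasma and circulating cells, whereas hypobaric hypoxia takes no blood. Erythroid cells that retain CD45, the leukocyte common antigen, are the subject of the series, whose title concerns signatures of antigen-presenting cells. Presentation on MHC class II rests on alpha and beta chains, on the invariant chain Cd74 and on the transactivator Ciita.

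The promoters of Irf1 and Nfkbia are shown first, because these genes moved in opposite directions and kept their calls whichever sample was left out. Irf1 encodes a transcription factor induced by interferon, and Nfkbia encodes the inhibitor that holds NF-kappaB in the cytoplasm. Each sequence holds the 250 bases before the RefSeq start of the gene in GRCm38.p6, at chr11:53769764-53770013 on the plus strand for Irf1 and at chr12:55492648-55492897 on the minus strand for Nfkbia. Capitals mark matches, on either strand, to the STAT motif TTCNNNGAA and to the kappaB consensus. Irf1 has 2 start entries in RefSeq and the first was used.
Irf1: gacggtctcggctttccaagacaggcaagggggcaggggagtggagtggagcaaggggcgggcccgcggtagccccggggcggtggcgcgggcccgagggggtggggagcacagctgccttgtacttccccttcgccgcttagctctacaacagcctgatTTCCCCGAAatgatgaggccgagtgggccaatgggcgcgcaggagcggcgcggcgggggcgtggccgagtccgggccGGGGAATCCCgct
Nfkbia: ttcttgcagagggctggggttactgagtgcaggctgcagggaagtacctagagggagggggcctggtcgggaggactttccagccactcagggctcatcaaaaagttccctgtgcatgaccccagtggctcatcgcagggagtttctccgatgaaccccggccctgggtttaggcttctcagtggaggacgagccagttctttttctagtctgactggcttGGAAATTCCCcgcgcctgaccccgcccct
The Irf1 window held a STAT match that begins 90 bases upstream of the start and a kappaB match that begins 13 bases upstream, and these did not overlap. The Nfkbia window held a kappaB match 29 bases upstream and no STAT match. Of 32851 RefSeq windows of this length, 7.02% held the STAT motif, 5.00% the kappaB consensus and 0.390% both. A match describes the letters only, since no binding was measured.

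Depth differed between the groups before any gene was compared. Total counts were 15550, 21251, 7016 and 31006 in the blood loss samples and 58739, 44254, 75246 and 81370 in the hypoxia samples, with no overlap. Endogenous genes were tested when their raw count reached 20 in at least 4 of the 8 samples, which kept 200 of 547. The tested genes had a median raw count of 11.5 to 43 in the blood loss samples and of 63.5 to 103 in the hypoxia samples. The 347 untested genes had medians of 2, 4, 2 and 7 in blood loss and 4, 4, 4 and 5 in hypoxia, so these overlapped although the total counts did not. Within the blood loss group the deepest sample held the highest of these medians, and within the hypoxia group likewise. Dividing such a count by a depth factor gives a lower scaled value in the deeper samples, and calls made after a background value was subtracted are given with the results.

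**Figure D1:**
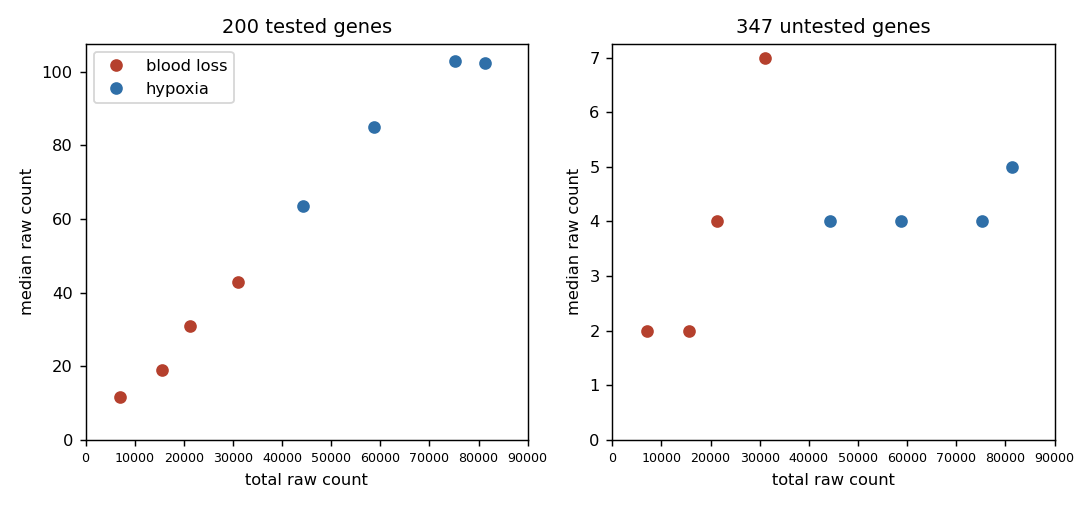
Total raw count of each sample (horizontal) against the median raw count (vertical) of the 200 tested genes, left, and of the 347 untested endogenous genes, right. Each point is a sample. The tested medians run from 11.5 to 103 along with depth, whereas the untested medians lie between 2 and 7, with the highest in a blood loss sample.

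Counts were scaled by the geometric mean of 6 housekeeping genes (Eef1g, Gapdh, Oaz1, Polr2a, Ppia and Rpl19), and groups were compared with edgeR's quasi-likelihood test at an adjusted p under 0.05. All fold changes below are hypoxia over blood loss. Of the 200 tested genes, 3 rose (1.5%) and 26 fell (13%), 29 in all (14.5%), and 55 passed 0.05 before adjustment. Hypoxia and blood loss samples were fully apart for 25 genes (12.5%), with hypoxia higher in 7 (3.5%) and lower in 18 (9%). No tested gene had raw counts that were higher in every blood loss sample than in every hypoxia sample.

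The balance of directions depended on the scaling. Across all 200 genes the median log2 fold change was -0.17 under the 6 housekeeping genes, and higher genes made up 10.3% of the calls. With TMM factors the median was 0.03, and 8 genes (4%) were called higher and 8 (4%) lower, 8% in all, so that 50% of calls were higher. With the authors' deposited size factors the median was 0.67, and 104 genes (52%) were called higher and 1 (0.5%) lower, 52.5% in all, so that 99.0% of calls were higher. All 14 housekeeping genes gave 8 higher (4%) and 1 lower (0.5%), 4.5% in all, of which 88.9% were higher. Without Rpl19 the test called 3 higher (1.5%) and 13 lower (6.5%), 8% in all, of which 18.8% were higher. Higher genes were 50% of the calls under total counts (3.5% called each way, 7% in all) and 33.3% under median-of-ratios factors (2% higher, 4% lower, 6% in all). Under all 7 scalings, Irf1, Psmc2 and Tollip were called higher (1.5%) and Ctsg was called lower (0.5%). Under the 5 scalings other than the deposited size factors and all 14 housekeeping genes, 7 genes were called lower (3.5%): Ctsg, Casp1, Itgb2, Btla, Tbk1, Icosl and Nfkbia. Of the 26 genes called lower, 13 were called under no scaling but the 6 housekeeping genes. Among the genes named below these are S100a9, Btk, Tcf4, Ctla4, Pecam1, Stat4, Ski and Casp8. With each of the 8 samples left out in turn, 5 of the 29 genes kept their call every time (Irf1, Nfkbia, Casp1, Ctsg and Itgb2) and 24 lost it at least once. Btla and Tbk1 lost it only without the second blood loss sample (adjusted p = 0.0799 and 0.0702).

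**Figure D2:**
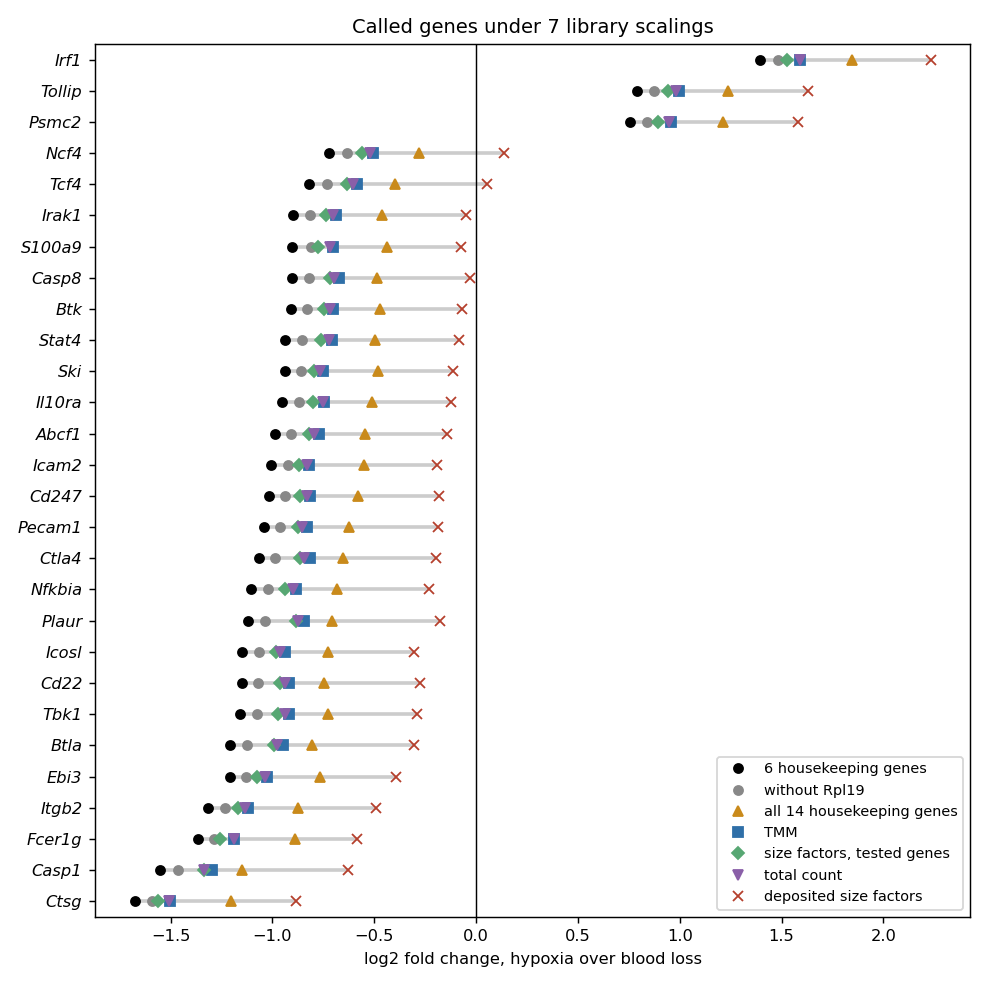
Log2 fold change, hypoxia over blood loss (horizontal), of called genes under 7 library scalings, 1 symbol per scaling. Irf1, Tollip and Psmc2 stay above 0 throughout, and Ncf4 and Tcf4 reach 0.14 and 0.05 with the deposited size factors.

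Irf1 had the largest called rise under the 6 housekeeping genes. Its scaled counts were 125, 64.0, 88.0 and 64.8 in the blood loss samples and 163, 223, 286 and 211 in the hypoxia samples. Every hypoxia sample lay above every blood loss sample. The log2 fold change was 1.40 (SE 0.28, adjusted p = 0.00185 by edgeR), with means of 85.3 ± 28.4 and 221 ± 50.8 (SD, n = 4). Irf1 was called in 16 of the 16 other settings that tested it and with each of the 8 samples left out, and its log2 fold change ranged from 1.24 to 2.23 over all of these.

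Psmc2 and Tollip were the other called rises. Psmc2 encodes an ATPase subunit of the proteasome cap, and its scaled counts were 92.3, 51.5, 82.8 and 74.6 in blood loss and 126, 159, 112 and 106 in hypoxia. Tollip encodes an adaptor that restrains Toll-like and interleukin-1 receptor signalling, and its scaled counts were 49.4, 44.4, 62.1 and 51.0 against 84.7, 95.4, 83.6 and 86.8. Neither gene's groups overlapped. The log2 fold change of Psmc2 was 0.75 (SE 0.26, adjusted p = 0.0425) and that of Tollip was 0.79 (SE 0.27, adjusted p = 0.0481). With 1 sample left out, Psmc2 stayed called in 2 of 8 fits and Tollip in 0 of 8.

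Interferon response genes were represented by 21 panel members, of which 12 were tested. Irf1 was called higher and none was called lower, beside 1.5% and 13% of all tested genes. The list's median log2 fold change was 0.25 beside -0.17 over all tested genes. Irf4, a factor of lymphocyte activation and plasma cells, had scaled counts of 90.2, 147, 114 and 92.2 in blood loss and 128, 117, 273 and 254 in hypoxia, which overlap. Irf8, a factor of the myeloid and B lineages, had 45.1, 35.5, 25.9 and 34.3 against 47.1, 71.4, 64.1 and 66.4, which do not overlap. Irf4 (log2 fold change 0.81, SE 0.29, adjusted p = 0.0574) and Irf8 (0.78, SE 0.32, adjusted p = 0.104) missed the threshold. Mx1, an antiviral GTPase, differed by -0.98 on the log2 scale (SE 0.35, adjusted p = 0.0509). Under TMM 3 members were called higher, beside 4% of all tested genes, and under the authors' deposited factors 8, beside 52%.

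The called inflammatory genes were lower after hypoxia. Nfkbia had scaled counts of 223, 217, 285 and 185 in blood loss and 66.4, 104, 117 and 128 in hypoxia, with no overlap. Its log2 fold change was -1.11 (SE 0.26, adjusted p = 0.00584), and it was called in 15 of the 17 other settings and with each of the 8 samples left out. Casp1, the inflammasome protease that matures interleukin-1 beta, had 32.2, 55.1, 150 and 61.8 against 24.1, 20.6, 21.9 and 25.5, and fell by 1.55 on the log2 scale (SE 0.35, adjusted p = 0.00425). The third blood loss sample, the shallowest, held the highest Casp1 value, and Casp1 stayed called with that sample left out.

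Of the 23 panel members of the NF-kappaB and inflammatory list, 12 were tested and 2 fell, Nfkbia and Casp1, near the 13% of all tested genes. The list's median log2 fold change was -0.04. Tnfaip3, a feedback inhibitor of NF-kappaB as Nfkbia is, differed by 0.20 on the log2 scale (SE 0.31, adjusted p = 0.748). Relb, a subunit of the alternative NF-kappaB pathway, had 0.37 (SE 0.25, adjusted p = 0.383). Tbk1, a kinase upstream of interferon induction, is on no list and fell by 1.16 on the log2 scale (SE 0.30, adjusted p = 0.0109).

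**Figure D3:**
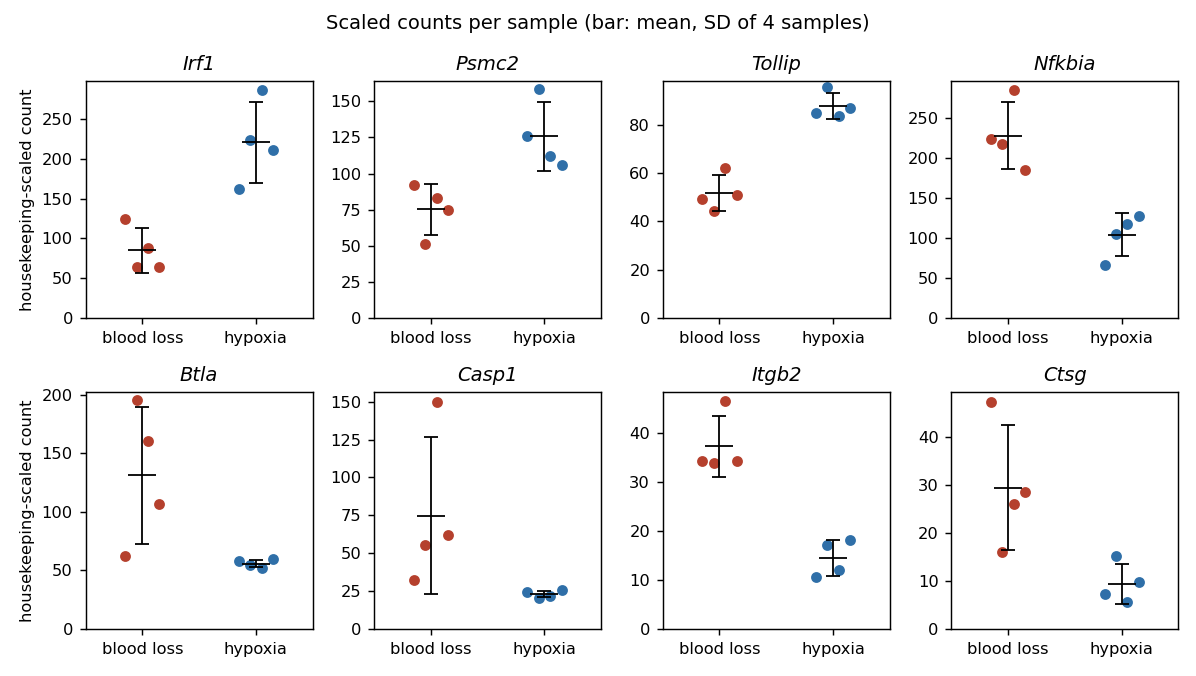
Housekeeping-scaled counts (vertical, from 0) of 8 called genes in each of 4 blood loss and 4 hypoxia samples; the bar is the mean with its SD. Hypoxia is above blood loss without overlap for Irf1, Psmc2 and Tollip and below it without overlap for the other 5 genes.

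Ratios within a sample do not depend on any library factor. Irf1 over Nfkbia in raw counts was 0.558, 0.295, 0.309 and 0.351 in blood loss and 2.45, 2.14, 2.44 and 1.65 in hypoxia. Irf1 over Ptprc, the CD45 gene, was 0.199 to 0.682 after blood loss and 0.883 to 1.35 after hypoxia. Nfkbia over Tnfaip3 was 0.405 to 0.509 and 0.138 to 0.238. None of these ranges overlapped. Irf1 over H2-Eb1, an MHC class II gene, was 0.153 to 0.389 after blood loss and 0.379 to 0.564 after hypoxia, which do overlap. The ratios were chosen after the values were seen, so they carry no test.

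Of 20 gene pairs fixed for ratios, 17 had enough counts to be tested. With 4 samples against 4 the smallest two-sided exact p is 0.0286, and 0 pairs passed after Benjamini-Hochberg adjustment over the 17. With that floor, a few pairs could not pass even when fully separated, so the absence of passing pairs says little. Exactly 3 pairs reached the unadjusted 0.0286 in the exact permutation test, and their groups did not overlap. Cd74 over H2-Eb1 was 12.3, 10.4, 12.96 and 12.1 in blood loss and 6.42, 8.04, 6.62 and 5.92 in hypoxia. This ratio was lower by 0.83 on the log2 scale, a mean log2 difference of -0.83 (exact permutation adjusted p = 0.162). Cd74 over Ptprc was 13.2 to 21.6 after blood loss and 14.04 to 21.6 after hypoxia, so these groups overlapped (log2 difference 0.08, exact permutation p = 0.543).

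The other pairs at 0.0286 were housekeeping genes. Polr2a, the largest subunit of RNA polymerase II, over Rpl19, a ribosomal protein gene, was 0.229 to 0.468 after blood loss and 0.120 to 0.160 after hypoxia. Eef1g, a translation elongation factor gene, over Rpl19 was 0.224 to 0.312 and 0.320 to 0.409. Both pairs had an adjusted p of 0.162 in the exact permutation test. The other fixed pairs of factor genes overlapped between the groups: Gapdh over Ppia (log2 difference 0.57, exact permutation p = 0.0857) and Oaz1 over Ppia (log2 difference -0.06, exact permutation p = 0.743).

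**Figure D4:**
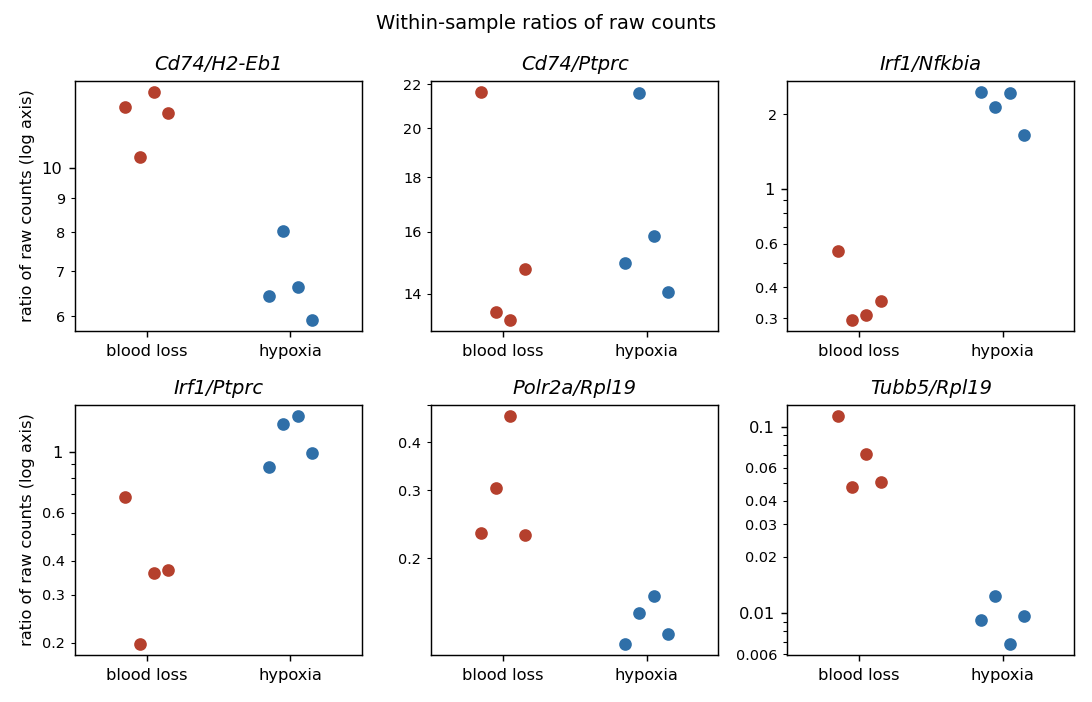
Within-sample ratios of raw counts (vertical, log axis) for 6 gene pairs in 4 blood loss and 4 hypoxia samples, each point a sample. The groups are apart for all pairs but Cd74 over Ptprc, and Irf1 over Nfkbia runs from 0.295 to 0.558 in blood loss and from 1.65 to 2.45 in hypoxia. The pairs with Irf1 or Tubb5 were chosen after their values were seen. The others are from the fixed pairs, of which 3 of the 17 tested were apart.

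Housekeeping genes were also tested as if endogenous, with TMM factors over 214 genes, of which 19 were called (8.88%). Tubb5, a beta-tubulin gene, had raw counts of 46, 26, 11 and 48 in blood loss and 24, 21, 20 and 30 in hypoxia. It fell by 2.24 on the log2 scale (SE 0.31, adjusted p = 0.00023), and its ratio to Rpl19 was 0.0477 to 0.114 after blood loss and 0.00686 to 0.0124 after hypoxia. Hprt, a purine salvage enzyme gene, fell by 1.14 (SE 0.32, adjusted p = 0.0339), and Eef1g rose by 1.06 (SE 0.24, adjusted p = 0.0164). Over all edgeR fits of these genes, the highest adjusted p was 0.00183 for Tubb5, 0.159 for Hprt and 0.0752 for Eef1g. The calls of Hprt and Eef1g were thus lost in some fits. With the 6 housekeeping genes as factor, 32 of the 214 genes were called. Some of these 6 genes then differed between the groups themselves. Eef1g and Rpl19 were higher after hypoxia and Polr2a and Ppia lower, each without overlap, whereas Gapdh and Oaz1 overlapped. Of the 6, Eef1g was called (log2 fold change 0.85, SE 0.25, adjusted p = 0.0290 by edgeR). When each of the 6 factor genes served alone as denominator, no tested gene separated the groups under all 6 (0%). Itgb2 separated them under 5 of 6, and Irf1, Psmc2, Tollip, Nfkbia, Casp1, Ctsg and Tbk1 under 4 of 6.

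Cd74 and H2-Aa were the most abundant genes of the panel in both groups, and with edgeR 0 of the 10 tested MHC class II members were called. Before adjustment 2 members passed 0.05, as did 55 of all 200 tested genes, and DESeq2 called 1 member and voom 0. Cd74 took 10.2% ± 1.73 of all counts in blood loss and 10.7% ± 1.44 in hypoxia (SD, n = 4). H2-Aa, a class II alpha chain, took 7.78% ± 1.96 and 10.2% ± 1.23. Cd74 had scaled counts of 3943, 4329, 3219 and 2581 against 2753, 3793, 3354 and 2983, which overlap. Its log2 fold change was -0.13 (SE 0.26, adjusted p = 0.801), and the sign turned with TMM factors (0.11).

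H2-Eb1, a class II beta chain, had scaled counts of 320, 418, 248 and 214 in blood loss and 429, 472, 507 and 504 in hypoxia. These groups did not overlap, and the log2 fold change was 0.67 (SE 0.29, adjusted p = 0.127). H2-Ab1, the other beta chain, had 0.48 (SE 0.25, adjusted p = 0.207) and also no overlap. H2-Ob, a chain of the class II peptide-loading modulator, had -0.77 (SE 0.31, adjusted p = 0.104) and Ciita -0.64 (SE 0.32, adjusted p = 0.181). The list's median was 0.14, and 2 members were called higher under TMM, which called 4% of all tested genes higher. The authors' deposited factors called 7 members higher, and 52% of all tested genes.

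MHC class I presentation had 6 tested members and no calls by edgeR, DESeq2 or voom. Its median log2 fold change was -0.07, and 1 member passed 0.05 before adjustment, beside 55 of all 200 tested genes. B2m, the light chain of class I molecules, had -0.06 (SE 0.27, adjusted p = 0.904), and H2-K1, a heavy chain, had 0.38 (SE 0.27, adjusted p = 0.386). Among 4 tested constitutive proteasome genes Psmc2 was the only call, beside 1.5% called higher over all tested genes. Of 6 tested costimulatory and checkpoint ligands 1 fell, beside 13% of all tested genes. This was Icosl, the ligand of the T cell costimulator ICOS, which fell by 1.15 (SE 0.31, adjusted p = 0.0157). Cd86 (-0.48, adjusted p = 0.324) and Cd274, which encodes PD-L1 (-0.09, adjusted p = 0.855), did not pass.

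Erythroid and progenitor genes had 8 tested members and 0 calls with edgeR, DESeq2 or voom, and 0 passed 0.05 before adjustment. Their median log2 fold change was 0.01. Tfrc, the receptor through which erythroblasts take up transferrin-bound iron, had scaled counts of 354, 162, 326 and 264 in blood loss and 128, 448, 167 and 135 in hypoxia. Tal1, a factor of the erythroid lineage, had 25.8, 14.2, 41.4 and 36.3 against 5.29, 61.1, 11.5 and 12.2. The second hypoxia sample was the highest of all 8 for both genes, and the groups overlapped. The summed level of the 15 panel members was 764 to 1159 after blood loss and 758 to 1721 after hypoxia.

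Markers of other spleen cells were present in both groups, and their part in the called genes was not tested. In these bulk samples, fewer cells of a type and less RNA per cell cannot be told apart. Summed scaled levels of 18 B cell markers (15 tested) were 1146 to 2174 after blood loss and 1099 to 1731 after hypoxia. Those of 11 granulocyte markers (6 tested) were 2327 to 5167 and 1264 to 2814. Those of 29 T and NK cell markers, of which only 5 had enough counts to be tested, were 663 to 1159 and 520 to 881. Those of 14 monocyte and macrophage markers were 292 to 409 and 184 to 243, without overlap, but 12 of the 14 were too low to test. Endothelial and stromal markers summed to 107 to 186 and 39.9 to 73.0, also without overlap, with 1 of 7 tested. Platelet markers summed to 69.3 to 145 and 53.8 to 86.6, with 2 of 4 tested. Such separation was not particular to cell type markers. Sums of the Fc receptor, adhesion, complement, cell death, and hypoxia and glycolysis lists were also lower after hypoxia without overlap. The 14 housekeeping genes summed to 2790 to 2899 after blood loss and 2950 to 3076 after hypoxia.

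Granulocyte genes had 6 tested members, of which 2 fell and none rose, beside 13% called lower over all tested genes, with a median of -0.75 beside -0.17. Ctsg, a neutrophil granule protease gene, had scaled counts of 47.2, 16.0, 25.9 and 28.5 in blood loss and 7.22, 15.1, 5.58 and 9.82 in hypoxia, and its log2 fold change was -1.68 (SE 0.33, adjusted p = 0.00185). Its raw counts were 22, 9, 5 and 29 against 15, 22, 14 and 25, which overlap, and it stayed called after a background value was subtracted but not after all samples were thinned to the shallowest. S100a9, a calcium-binding alarmin gene, had scaled counts of 3059, 1235, 2189 and 2187 against 1327, 1035, 683 and 1584, which overlap (log2 fold change -0.90, SE 0.30, adjusted p = 0.0401). S100a8, its partner, had -0.79 (SE 0.30, adjusted p = 0.0871), and the ratio of S100a9 to S100a8 was 1.80 to 2.22 after blood loss and 1.85 to 1.98 after hypoxia.

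B cell genes had 15 tested members, of which 3 fell and none rose, near the 13% called lower over all tested genes. Their median was -0.39, beside -0.17 over all tested genes. Cd22, an inhibitory coreceptor of B cells, fell by 1.15 (SE 0.34, adjusted p = 0.0234). Btk, a kinase of B cell receptor signalling, fell by 0.91 (SE 0.29, adjusted p = 0.0374), and Tcf4, a transcription factor gene, fell by 0.82 (SE 0.27, adjusted p = 0.0374). Ms4a1, which encodes CD20, had -0.33 (adjusted p = 0.530) and Cd79b, a receptor signalling chain, had 0.15 (adjusted p = 0.748). With TMM factors none of the list was called lower and 1 was called higher, beside 4% of all tested genes each way.

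Btla, an inhibitory receptor of lymphocytes that is on no list, fell by 1.21 (SE 0.28, adjusted p = 0.00473). Its scaled counts were 62.3, 195, 160 and 107 in blood loss and 57.7, 54.2, 52.2 and 59.3 in hypoxia, so the groups did not overlap, though the first blood loss sample lay close to the hypoxia samples. It was called in 15 of 17 other settings. Of 5 tested T and NK cell genes, 2 fell (13% of all tested genes did): Ctla4, an inhibitory receptor of T cells, by 1.07 (SE 0.34, adjusted p = 0.0374), and Cd247, the zeta chain of the T cell receptor, by 1.02 (SE 0.30, adjusted p = 0.0234). Cd3e, a defining T cell gene, was untested, at raw counts of 7, 13, 3 and 10 in blood loss and 18, 11, 30 and 37 in hypoxia.

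Adhesion genes had 11 tested members and 3 falls, beside 13% over all tested genes, with a median of -0.41 beside -0.17. Itgb2, the beta chain shared by the leukocyte integrins, had scaled counts of 34.3, 33.8, 46.6 and 34.3 in blood loss and 10.6, 17.2, 11.9 and 18.1 in hypoxia, and fell by 1.32 on the log2 scale (SE 0.29, adjusted p = 0.00367). Pecam1 and Icam2, adhesion molecules of endothelium and leukocytes, fell by 1.04 (adjusted p = 0.0374) and 1.01 (adjusted p = 0.0219). Itgb2 was called in 12 of 15 other settings and with each of the 8 samples left out.

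Smaller lists held 1 call each or none, beside 13% called lower over all tested genes, so a single call says little about its list. Fcer1g, an ITAM adaptor chain of Fc receptors, fell by 1.37 (SE 0.35, adjusted p = 0.0109), with raw counts of 23, 10, 2 and 24 in blood loss and 21, 26, 14 and 23 in hypoxia. Of the 4 tested members of its list, Tyrobp, another ITAM adaptor, had -0.82 (adjusted p = 0.0597). Stat4 was the single call among 9 JAK and STAT genes and fell by 0.94 (adjusted p = 0.0374). Ski, a SMAD corepressor, fell by 0.94 among 6 TGF-beta genes (adjusted p = 0.0374), where Smad3 had 0.72 (adjusted p = 0.180).

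In the remaining lists, single calls again stood beside 13% called lower over all tested genes. Casp8, a death receptor protease, fell by 0.91 among 4 tested cell death genes (adjusted p = 0.0401). Plaur, the urokinase receptor, fell by 1.12 among 6 tested hypoxia and glycolysis genes (SE 0.32, adjusted p = 0.0219), with a list median of -0.34. No member was called among 6 leukocyte common genes, 6 complement genes, 5 chemokine genes, 2 macrophage, 2 dendritic cell and 2 platelet markers and 1 autophagy gene. Before adjustment, 2 complement genes and 1 leukocyte common gene, macrophage marker and dendritic cell marker each passed 0.05. Over all tested genes, 55 of 200 did. In the same lists DESeq2 called 1 dendritic cell marker, and voom called 1 gene of the complement list and 1 of the macrophage list. C1qb is on both the complement and the macrophage list. It was counted in each before adjustment, and the voom calls in these lists can be the same gene. C1qb, a complement and macrophage gene, had the second most negative log2 fold change of all, at -1.56 (SE 0.63, adjusted p = 0.148), with scaled counts of 81.6, 46.2, 51.8 and 30.4 in blood loss and 15.9, 41.9, 9.61 and 5.50 in hypoxia.

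**Figure D5:**
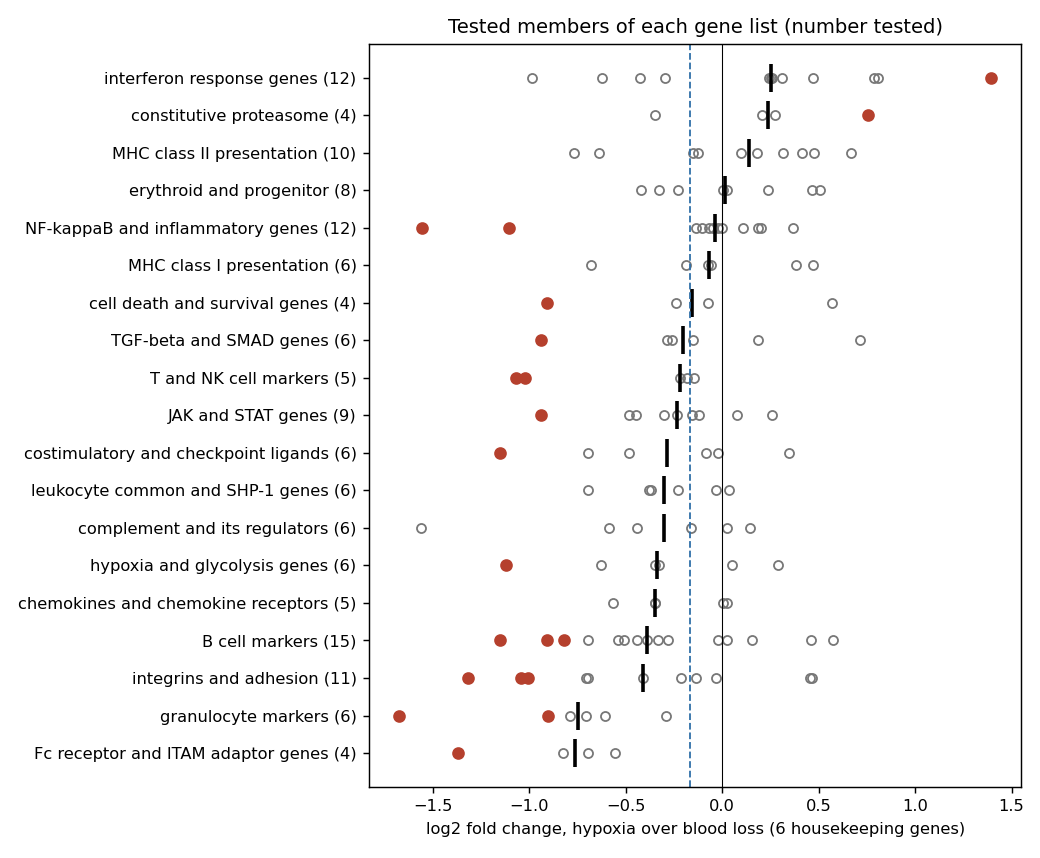
Log2 fold change, hypoxia over blood loss (horizontal), of the tested members of the gene lists with at least 4 of them, each circle a gene; filled circles passed the test, black ticks are list medians and the dashed line is the median of all tested genes, -0.17. Medians run from 0.25 for interferon response genes to -0.76 for Fc receptor and ITAM adaptor genes.

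The low depth of the blood loss samples limits how firmly the calls can be stated. Of the 26 genes called lower, 20 did not reach a raw count of 20 in every blood loss sample. This was not particular to the falls. In the third blood loss sample only 69 genes reached 20, and the median of the 200 tested genes was 11.5. Most tested genes therefore also did not reach 20 in every blood loss sample. After each sample's 25th percentile count was subtracted, 6 genes were called lower, namely Btla, Casp1, Ctsg, Itgb2, Nfkbia and Plaur, and Irf1 was called higher. After thinning to the shallowest total, Btla, Nfkbia and Plaur were called lower and Irf1 higher. Irf1, Nfkbia, Btla and Plaur were therefore called under both settings, Plaur with overlapping groups. Both settings used the 6 housekeeping genes as factor, so they do not address the scaling. Plaur was called under 2 of the 7 scalings, and it lost its call without blood loss 2, 3 or 4.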

How the data were processed

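Raw counts per gene were deposited by the authors for 12 samples. The deposited normalized signal equals the raw count divided by 1 size factor per sample, and the deposited log2 values equal log2 of that signal plus 1, to within 0.00500. How background and control probes were treated is not given in the sources used here. Raw counts of 8 samples were analysed. Library factors were geometric means of 6 housekeeping genes. Endogenous genes with a count of 20 or more in at least 4 samples (200 of 547) were tested with edgeR 4.0.16 (robust quasi-likelihood, group only, R 4.3.3) and Benjamini-Hochberg adjustment at 0.05. Ratios were compared with exact permutation tests over 70 splits. Alternatives used 6 other scalings, DESeq2 1.42.0, limma 3.58.1 (voom), other filters, thinning, background subtraction, other samples and leaving out each sample. DESeq2 was run with median-of-ratios factors over the tested genes, and voom with the 6 housekeeping genes. In simulated hypoxia against blood loss data of 200 genes, the test recovered 65% of genes changed 2-fold and 100% of genes changed 4-fold. The simulated counts were made and fitted with the same library factors, so these rates leave out any error in the factors.

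The naming rule took, from called genes that reached a count of 20 in each of the 4 samples of a group, the 10 largest rises and the 10 largest falls. It added tested list members, genes of the ratio pairs, and the 5 abundant genes nearest the median change. Ebi3, Il10ra, Irak1, Abcf1 and Ncf4, outside this rule, appear because called genes were plotted. Results of some genes are not reported here. Testing the housekeeping genes, naming Tubb5 and Hprt, and using single housekeeping genes as denominators were chosen after the data were seen. The comparison, gene lists, pairs and rule were chosen with earlier results of these data known. The 1 column of Normal mice that equals the median of the other 3 plus 3 in 100% of genes entered only the 12-sample alternative.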

Additional observations from a re-analysis of the deposited data

Results flagged for a closer look

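Of 172 groups of 4 samples examined for the named genes and ratios, 12 held a sample far from the other 3, where chance gives about 1 in 20. In the second hypoxia sample, Tfrc had a scaled count of 448 beside 128 to 167 in the other 3, Tal1 had 61.1 beside 5.29 to 12.2, the ratio of Tfrc to Ptprc was 2.55 beside 0.634 to 0.789, and the ratio of Oaz1 to Ppia was 0.957 beside 0.541 to 0.554. In the third blood loss sample, the shallowest, Cd247 had 46.6 beside 24.5 to 25.8, Itgb2 had 46.6 beside 33.8 to 34.3, and Psmb7, a proteasome subunit, had 98.3 beside 56.9 to 64.0.

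In the second blood loss sample, H2-Aa had 3949 beside 2096 to 2396 and H2-Ea-ps had 1800 beside 841 to 906. In the first blood loss sample H2-Ob had 36.5 beside 58.6 to 62.8. Ctss, a class II processing protease, had 137 in the third hypoxia sample beside 103 to 107, and the ratio of Cd74 to H2-Aa was 0.933 in the first hypoxia sample beside 1.08 to 1.10.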

How the results depend on the processing

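Beside 3 genes called higher and 26 lower, the counts were 8 and 8 under TMM, 4 and 8 when median-of-ratios factors were taken from tested genes, 104 and 1 under the authors' deposited factors, 8 and 1 when 14 housekeeping genes were averaged, 3 and 13 without Rpl19, and 7 and 7 with total counts. DESeq2 gave 7 and 7, with 4 adjusted p-values missing, and voom 1 and 18. Without a filter on low counts they were 6 and 238 of 547 genes, with 20 or more in all 8 samples 1 and 4 of 61, with 50 or more in at least 4 samples 3 and 9 of 121, after thinning 1 and 3, and after subtracting the 25th percentile 1 and 6. With 11 samples in the fit they were 1 and 17, and with 12 samples 4 and 23. Leaving out each sample gave 1 to 4 higher and 6 to 36 lower. The fewest falls came without blood loss 4 (6), blood loss 2 (7) and blood loss 3 (10), and without hypoxia 1 and hypoxia 3 there were 11 and 12. The causes were not tested, except that stricter filters tested fewer genes. No ratio pair passed under any alternative. With 8 samples a few separated pairs could not pass, and 7 samples allow an exact p no lower than 0.0571, so none could. In their deviations from the group means, same-numbered samples correlated at -0.05, -0.33, -0.01 and 0.18. Differently numbered samples correlated at -0.17 to 0.33, so no pairing by number was seen. These correlations cannot show whether samples shared a pool or a cartridge, which was not tested. With the replicate number as a block 1 gene was called higher and 18 lower.

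Over 1597 values of 68 genes under alternatives, 51 turned their sign, and the cause was not tested. The deposited size factors turned B2m (0.79), Cd274 (0.80), Cd74 (0.73), Cd36 (0.67), Ptprc (0.67), Ms4a1 (0.57), Tfrc (0.47), Cd86 (0.43), Syk (0.35), Tal1 (0.33), Fcgr2b (0.21), Ciita (0.20), Camp (0.19), Cd48 (0.15), Ncf4 (0.14), H2-Ob (0.077), Tyrobp (0.062), Tcf4 (0.052) and S100a8 (0.043). All 14 housekeeping genes turned B2m (0.38), Cd274 (0.34), Cd74 (0.30), Cd36 (0.22), Ptprc (0.19), Tfrc (0.12), Ms4a1 (0.080) and Tal1 (0.042). TMM turned B2m (0.17), Cd274 (0.15), Cd74 (0.11), Ptprc (0.026) and Cd36 (0.024), and total counts B2m (0.16), Cd274 (0.13), Cd74 (0.10), Ptprc (0.0056) and Cd36 (0.00029). Median-of-ratios factors turned B2m (0.10), Cd274 (0.098) and Cd74 (0.044), and the DESeq2 test B2m (0.10), Cd274 (0.10) and Cd74 (0.044). Leaving out Rpl19 turned B2m (0.027), and thinning turned B2m (0.065), Cd274 (0.031) and Tal1 (0.019). With each sample left out in turn, B2m ranged from -0.15 to 0.050, turning without blood loss 2. Cd274 ranged from -0.20 to 0.016, turning without blood loss 2 (0.0012) or hypoxia 2 (0.016). Tnfaip3 ranged from -0.11 to 0.42, turning without hypoxia 4.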
